A study of Homo sapiens with 8 samples.

Results

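The genes described here are 7 secreted inflammatory mediators of fibroblasts: the cytokines IL6, LIF and IL33 and the chemokines CXCL8, CXCL1, CXCL12 and CCL2. They were chosen by name, and all 7 were found among the 59385 gene symbols of the count table. Total and polysomal RNA had been sequenced from the IHCF line, human cardiac fibroblasts that were immortalized and stand for the matrix-producing cells of the heart. The cells carried, by lentivirus, either a short hairpin RNA against EIF4G2, a translation initiation factor related to the scaffold EIF4G1, or a scrambled hairpin (scramble). All groups were kept in serum-free medium for at least 6 h and then given TGF-beta for 24 h, so every value below was measured under TGF-beta and none measures the response to it. Each hairpin was measured in both fractions with 2 libraries, which made 4 groups (scramble total, scramble polysome, knockdown total, knockdown polysome). The labels call these biological replicates but do not name separate cultures, so the spread behind every p-value is that among these libraries and may be technical. A single hairpin against EIF4G2 was labelled, with no rescue, so loss of EIF4G2 and other effects of that hairpin cannot be told apart.

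IL6 and LIF are cytokines of the family that signals through the shared receptor chain IL6ST (gp130) to JAK kinases and STAT3. CXCL8 (interleukin-8) and CXCL1 draw neutrophils through the receptors CXCR1 and CXCR2, CCL2 draws monocytes through CCR2, and CXCL12 acts through CXCR4 and ACKR3 on stem cells, lymphocytes and endothelium. IL33 is a nuclear alarmin of the interleukin-1 family that is released from damaged cells and binds IL1RL1 (ST2). Cytokine genes of this kind are commonly switched on by NF-kappaB, AP-1 and C/EBP factors, and many of their mRNAs carry AU-rich elements in the 3′ untranslated region that mark them for rapid decay and for control of translation. Polysomal RNA is the mRNA loaded with several ribosomes, so a gene's place there relative to total RNA is often read as a measure of ribosome loading.

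AU-rich stretches are shown because such elements are the best known regulatory feature that cytokine mRNAs share. For each 3′ untranslated region the first window of 30 bases with the most ATTTA copies was taken. With flanking bases added, the stretch was cut at 30 bases, which can cut off a copy at its end. In IL33 no such window held more than 1 copy, so the stretch shown is the first of 4 equal ones. Stretches were read 5′ to 3′ on the mRNA's strand from GRCh38 with GENCODE 29 models, with T for U, and the capitals mark each ATTTA.
IL6: ttaATTTAttaatATTTAaat
LIF: tttATTTAttcaatgtcatATTTAaaatat
CXCL8: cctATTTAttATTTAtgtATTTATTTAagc
CXCL1: tctATTTATTTATTTAttc
CXCL12: agcATTTAgaccctgcATTTAtag
CCL2: cttATTTAagt
IL33: catATTTAgag
The stretches lie at chr7:22731709-22731729 (IL6, plus strand), chr22:30240525-30240554 (LIF, minus strand), chr4:73743111-73743140 (CXCL8, plus strand) and chr4:73870679-73870697 (CXCL1, plus strand). The others lie at chr10:44378447-44378470 (CXCL12, minus strand), chr17:34256960-34256970 (CCL2, plus strand) and chr9:6256480-6256490 (IL33, plus strand). Over the whole 3′ untranslated region the ATTTA count was 9 in CXCL8, 7 in LIF, 6 in IL6, 5 in CXCL1, 4 in IL33, 3 in CXCL12 and 1 in CCL2. At least 5 copies were present in 4 of the 7 genes and in 28.6% of the 12899 tested coding genes with an annotated coding transcript. A transcript without an annotated 3′ untranslated region counted as having no copy. The IL6 region packed its 6 copies into 427 nt, whereas the LIF region had 7 in 3204 nt and the CXCL12 region 3 in 1500 nt.

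The promoters of IL6, CXCL8, CXCL1 and CXCL12 are shown because the first 3 share a word that the CXCL12 window lacks. Each is the 120 bases before the RefSeq gene start (GRCh38.p14), on the gene's strand, and the capitals mark GGANTTTCC, a form of the NF-kappaB binding sequence searched on both strands.
IL6: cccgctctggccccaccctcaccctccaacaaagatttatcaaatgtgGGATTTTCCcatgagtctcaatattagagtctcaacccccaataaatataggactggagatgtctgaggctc
CXCL8: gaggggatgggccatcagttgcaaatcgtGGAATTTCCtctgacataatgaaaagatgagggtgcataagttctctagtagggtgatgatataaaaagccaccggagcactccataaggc
CXCL1: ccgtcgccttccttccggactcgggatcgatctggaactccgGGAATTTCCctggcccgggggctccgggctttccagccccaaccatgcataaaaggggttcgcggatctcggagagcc
CXCL12: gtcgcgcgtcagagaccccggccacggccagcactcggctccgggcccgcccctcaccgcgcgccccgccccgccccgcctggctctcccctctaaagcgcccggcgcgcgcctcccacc
The windows are chr7:22727080-22727199 (IL6, plus strand), chr4:73740449-73740568 (CXCL8, plus strand), chr4:73869273-73869392 (CXCL1, plus strand) and chr10:44385098-44385217 (CXCL12, minus strand). The match began 72 bases before the start in IL6, 91 in CXCL8 and 78 in CXCL1. Of 35116 RefSeq promoters, 272 (0.775%) held the word in the same 120 bases. The word was not particular to these genes among chemokines. Of 17 other chemokines, 13 had a promoter in this set, and 5 of these held it: CXCL2, CXCL3, CXCL5, CXCL6 and CXCL11. The letters of this word were chosen after the promoters shown here had been read, so its presence is a description. The CXCL12 window held none and was 81.7% G and C, and the IL33 windows held none. The AP-1 word TGANTCA, searched over 250 bases on both strands, occurred in CXCL8 alone among these genes with a promoter in the table, and in 6.57% of all promoters. Promoters were matched for 5 of the 7 genes.

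Library totals ran from 18043714 to 24590030 counts. Levels below are CPM, counts scaled by the library total and a TMM factor, which was 1.37 to 1.45 in total and 0.653 to 0.751 in polysome libraries. A polysomal level is therefore relative to the other genes of its library. EIF4G2 was at 788.8 ± 5.99 CPM in scramble and 310.0 ± 23.9 in knockdown total RNA, and at 875.5 ± 1.21 and 289.0 ± 64.0 in polysomal RNA (SD, n = 2). Libraries of a fraction stood apart in 2 measures: mitochondrial transcripts took 3.88 to 4.21% of counts in total RNA and 14.5 to 17.5% in polysomal RNA, apart from 7.12% in scramble polysome replicate 1. The median transcript length per count was 2769 nt in knockdown total replicate 1, 3058 to 3096 nt in the other total libraries and 1757 to 1868 nt in polysome libraries. The 9 fibroblast markers summed to between 5465 and 6916 CPM and none was at 0. The 7 leukocyte markers summed to between 0.424 and 1.60 CPM, with CD3E at 0, the 5 endothelial markers to between 7.38 and 14.9 CPM with none at 0 in all 8 libraries, and the 5 cardiomyocyte markers to at most 1.12 CPM, with MYH6 and MYH7 at 0.

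CXCL12 was by far the most abundant of these mRNAs, also per length (given below), and IL33 was at the detection limit. In bulk RNA, fewer expressing cells and less RNA per cell cannot be told apart. CXCL12 (ENSG00000107562, chromosome 10, 44370165 to 44386493, minus strand) stood at 356.2 and 356.9 CPM in the scramble total libraries, 397.2 and 378.9 in knockdown total, 91.9 and 119.6 in scramble polysome and 128.5 and 155.6 in knockdown polysome. Every total library lay above every polysome library, and both knockdown libraries lay above both scramble libraries in each fraction. IL33 (ENSG00000137033, chromosome 9, 6215786 to 6257983, plus strand) had 1 count in scramble total replicate 1, 1 in knockdown total replicate 1 and 0 in the other 6 libraries. The limit set by 3 counts was 0.0942 to 0.112 CPM in total and 0.162 to 0.255 CPM in polysome libraries, and no fold is given. IL33 did not pass the filter on low counts, so 6 of the 7 genes were tested.

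Among the cytokines, LIF was more abundant than IL6 in scramble total RNA, at 4.52 against 1.495 CPM per kb of exon. LIF (ENSG00000128342, chromosome 22, 30240447 to 30246851, minus strand) stood at 18.7 and 17.2 CPM in the scramble total pair, 20.4 and 20.3 in knockdown total, 10.9 and 9.62 in scramble polysome and 8.23 and 14.3 in knockdown polysome. The polysome libraries all lay below the total libraries, and knockdown polysome replicates 1 and 2 were the lowest and the highest of the polysome libraries. IL6 (ENSG00000136244, chromosome 7, 22725884 to 22732002, plus strand) stood at 2.60 and 3.58 CPM in the scramble total pair, 3.74 and 2.47 in knockdown total, 9.91 and 12.2 in scramble polysome and 13.7 and 12.5 in knockdown polysome. The order was the opposite of that of LIF: every polysome library lay above every total library, while the hairpin groups overlapped in total RNA.

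The neutrophil chemokines were of low abundance and differed between the knockdown polysome libraries. CXCL8 (ENSG00000169429, chromosome 4, 73740506 to 73743716, plus strand) stood at 8.78 and 7.17 CPM in the scramble total pair, 9.20 and 7.05 in knockdown total, 3.90 and 4.04 in scramble polysome and 9.45 and 5.52 in knockdown polysome. Knockdown polysome replicate 1 was the highest of the 8 libraries. CXCL1 (ENSG00000163739, chromosome 4, 73869393 to 73871242, plus strand) stood at 5.74 and 7.35 CPM in the scramble total pair, 9.38 and 6.42 in knockdown total, 2.87 and 3.21 in scramble polysome and 2.77 and 5.77 in knockdown polysome. For this gene the high knockdown polysome library was replicate 2, and replicate 1 was the lowest of all. The monocyte chemokine CCL2 (ENSG00000108691, chromosome 17, 34255218 to 34257203, plus strand) had 25 to 41 counts per library, which gave 0.834 and 1.23 CPM in the scramble total pair, 1.19 and 1.28 in knockdown total, 1.95 and 2.43 in scramble polysome and 1.89 and 2.38 in knockdown polysome. All polysome libraries lay above all total libraries, and the hairpin groups overlapped in both fractions.

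**Figure D1:**
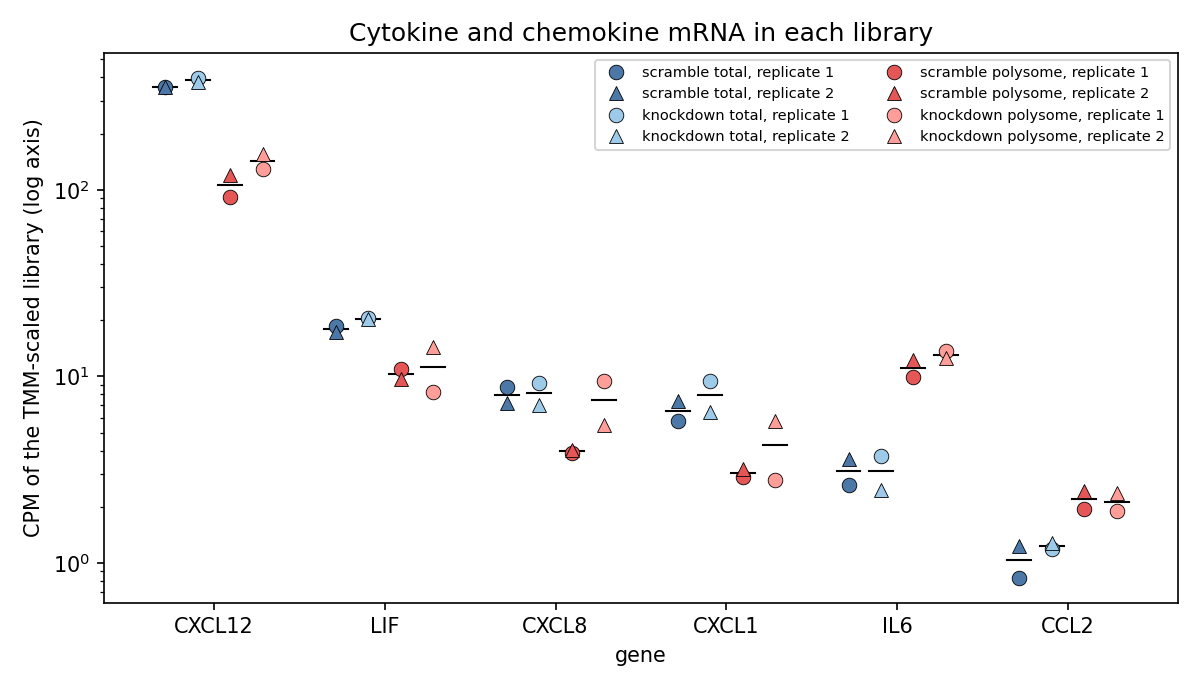
Level of the 6 tested genes in each of the 8 libraries, in CPM on a log axis, by group. Each point is a library and each bar a group mean. CXCL12, LIF, CXCL8 and CXCL1 are lower in scramble polysomal than in scramble total RNA, and IL6 and CCL2 are higher. IL33, at or near 0 throughout, is not shown.

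To rank the genes, CPM was divided by the length of all annotated exons in kb. In scramble total RNA the mean was 58.7 CPM per kb for CXCL12, 5.05 for CXCL1, 4.52 for LIF, 3.51 for CXCL8, 1.495 for IL6 and 0.520 for CCL2. The ranges of CXCL1 (4.43 to 5.67) and LIF (4.35 to 4.70) overlapped, so their order is not resolved, and with the length of 1 coding transcript in place of all exons CXCL8 (4.68) stood above LIF (4.52). In scramble polysomal RNA the order was CXCL12 at 17.4 CPM per kb, IL6 at 5.35, LIF at 2.59, CXCL1 at 2.34, CXCL8 at 1.74 and CCL2 at 1.10. LIF and CXCL1 again overlapped. Per kb of 1 coding transcript the places below IL6 changed: CCL2 (2.96) stood above CXCL1 (2.77), LIF (2.59) and CXCL8 (2.33). By either length IL6 had moved from the fifth place to the second, while the place of CCL2 depended on the length used.

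The make-up of the group, which does not depend on the scaling of libraries, showed the same shift. CXCL12 gave 90.0 to 91.0% of the counts of the 7 genes in the 4 total libraries and 75.7 to 79.4% in the 4 polysome libraries. IL6 gave 0.593 to 0.910% in total and 6.36 to 8.32% in polysome libraries. For every 100 CXCL12 counts there were 0.730, 1.00, 0.940 and 0.652 IL6 counts in the total libraries and 10.8, 10.2, 10.7 and 8.02 in the polysome libraries, in the order scramble 1 and 2, knockdown 1 and 2. The fractions did not overlap on this ratio, and the hairpin groups overlapped in both total and polysomal RNA. For every 100 CXCL1 counts there were 341 CXCL8 counts in knockdown polysome replicate 1, 95.6 in replicate 2, and between 97.5 and 153 in the other 6 libraries. The 2 knockdown polysome libraries thus bracketed all the others on the balance of these neutrophil chemokines.

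**Figure D2:**
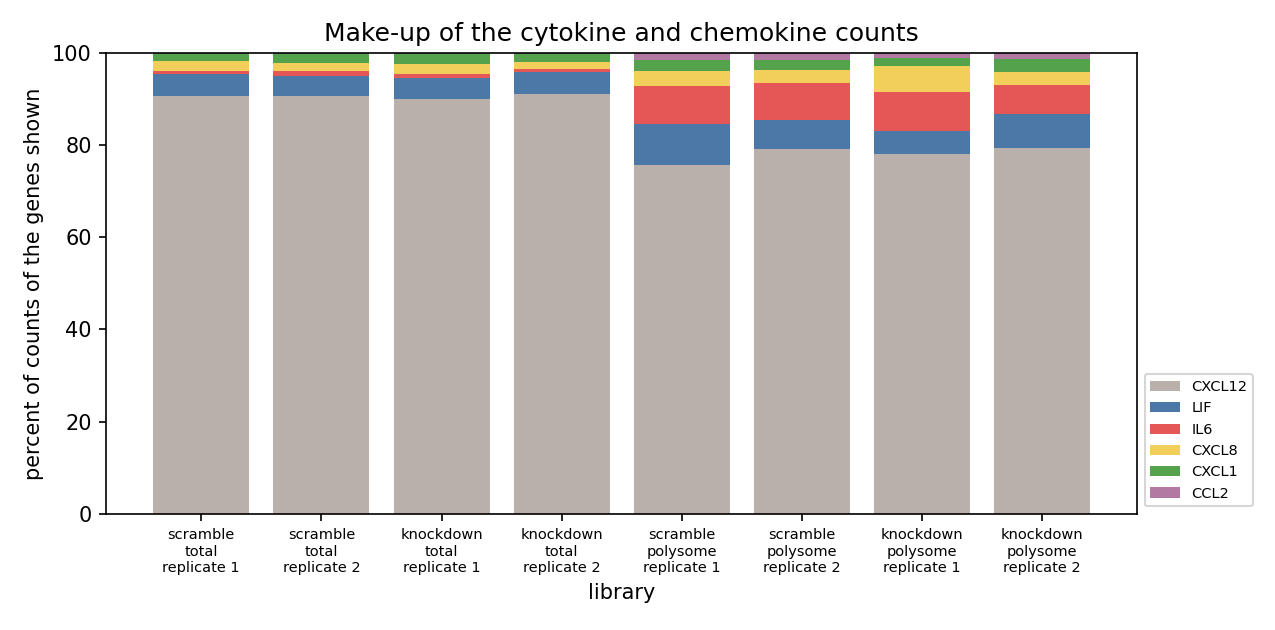
Share of the summed counts of the genes shown that each gene took, in percent, in each of the 8 libraries. CXCL12 takes 90.0 to 91.0% in total and 75.7 to 79.4% in polysome libraries, and IL6 is the gene whose share is most visibly larger in the polysome libraries.

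The comparison of polysomal with total RNA asked which of these mRNAs were over- or under-represented among ribosome-loaded mRNA, relative to other genes. In scramble cells IL6 was higher in polysomal RNA and CXCL12, CXCL1, CXCL8 and LIF were lower, so 1 of the 6 tested genes was called higher and 4 lower at a Benjamini-Hochberg adjusted p of 0.05. This test called 63.4% of all 16228 tested genes, 29.7% higher and 33.7% lower, so a call in this comparison was common. The fractions did not overlap for all 6 genes in scramble cells, 2 with polysomal RNA higher and 4 lower, as for 84.9% of tested genes (38.8% higher, 46.1% lower). The IL6 level was 3.58-fold higher in polysomal RNA (log2 1.84, SE 0.30, edgeR adjusted p = 0.000259), at the 87.5th percentile of all tested genes. CXCL12 was at 29.6% of its total RNA level (log2 -1.75, SE 0.17, edgeR adjusted p = 7.52e-06), at the 20.0th percentile. IL6 and CXCL12 lay on opposite sides of the median of all tested genes, which was -0.17 on the log2 scale, against -0.91 for the 6 tested genes described here.

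The other chemokines and LIF changed less. CXCL8 was at 49.8% of its total RNA level (log2 -1.01, SE 0.31, edgeR adjusted p = 0.0154), CXCL1 at 46.4% (log2 -1.11, SE 0.37, edgeR adjusted p = 0.0235) and LIF at 57.3% (log2 -0.80, SE 0.25, edgeR adjusted p = 0.0156). CCL2 did not pass, at log2 1.08 with a 95% interval of 0.03 to 2.14 (edgeR adjusted p = 0.0677). These calls rested on few libraries. The LIF call was lost without scramble total replicate 1 (edgeR adjusted p = 0.0787) or scramble polysome replicate 2 (0.0598), and the CXCL8 call without scramble total replicate 1 (0.107). The CXCL1 call was lost without scramble total replicate 2 (edgeR adjusted p = 0.130), scramble polysome replicate 1 (0.0719) or scramble polysome replicate 2 (0.0533). The IL6 and CXCL12 calls held under each of the 14 alternatives run for them in each hairpin group.

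In knockdown cells IL6 was again higher in polysomal RNA and CXCL12 and LIF were lower, so 1 of the 6 tested genes was called higher and 2 lower, where 63% of all tested genes were called, 28.9% higher and 34.1% lower. The fractions overlapped for CXCL8 and not for the other 5 (2 higher, 3 lower), where 81.4% of tested genes did not overlap (36.6% higher, 44.9% lower). IL6 was 4.21-fold higher in polysomal RNA (log2 2.07, SE 0.30, edgeR adjusted p = 0.000113). CXCL12 was at 36.6% of its total RNA level (log2 -1.45, SE 0.17, edgeR adjusted p = 2.77e-05), and LIF at 55.2% (log2 -0.86, SE 0.25, edgeR adjusted p = 0.0119). The LIF call was lost without knockdown total replicate 1 (edgeR adjusted p = 0.0544) or replicate 2 (0.0553). CXCL1 narrowly missed the threshold (log2 -0.90, edgeR adjusted p = 0.0530). It passed under 7 of the 14 alternatives run for it. DESeq2 was among these (DESeq2 adjusted p = 0.0438) and called 62.4% of all genes. CXCL8 stood at log2 -0.11 with a 95% interval of -0.78 to 0.56, and CCL2 at 0.78 with an edgeR adjusted p of 0.177. The median of the 6 was -0.48, against -0.16 for all tested genes.

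The baseline of these fraction comparisons rests on TMM. Scaled by library totals alone, the median of all tested genes moved to -1.16 in scramble and -1.22 in knockdown cells. On that scale IL6 was still called higher, at log2 0.84 (edgeR adjusted p = 0.0280) and 1.03 (0.0107), and CXCL12 was lower, at -2.76 and -2.51. CCL2 then stood at 0.08 in scramble and turned to -0.28 in knockdown cells, while CXCL8 passed as lower in knockdown cells (log2 -1.15, edgeR adjusted p = 0.00811).

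**Figure D3:**
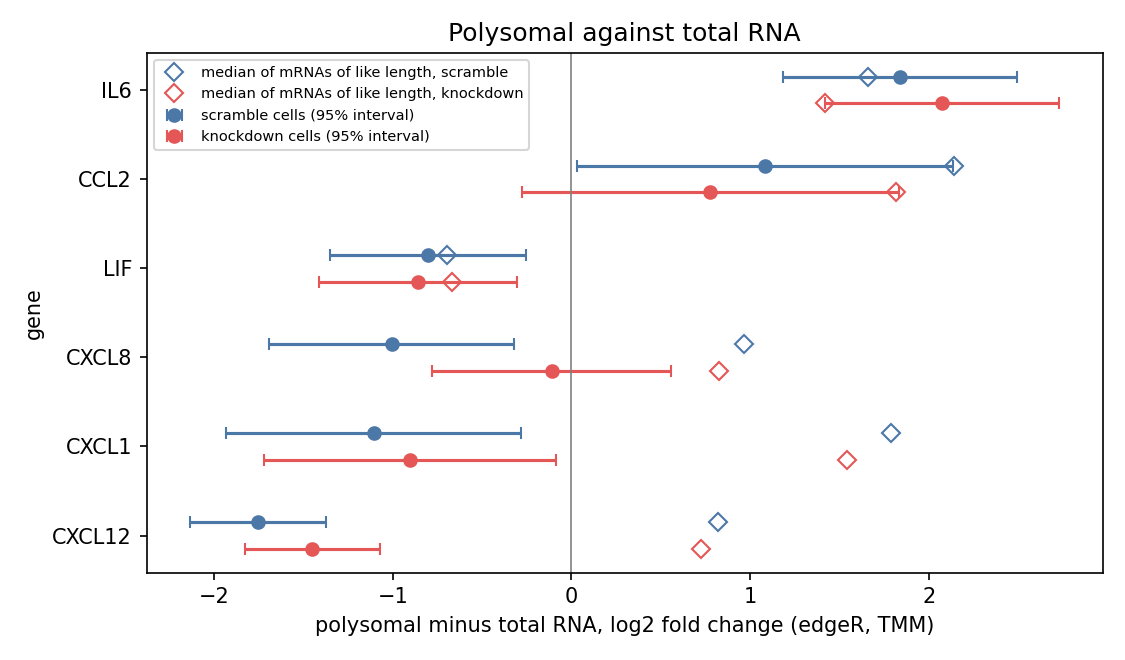
Log2 fold change of polysomal against total RNA for the 6 tested genes in scramble and in knockdown cells, with 95% intervals. Beside each gene is the median of tested coding genes whose transcript length is within 20% of its own. IL6 (1.84 and 2.07) lies above its median (1.66 and 1.42) with either hairpin. CXCL12 (-1.75 and -1.45) lies below its own (0.82 and 0.72).

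Because shorter mRNAs made up more of the polysome libraries, each gene was also set beside tested coding genes whose transcript length was within 20% of its own. Such mRNAs of the length of IL6 (1182 nt, 975 genes) had a median log2 change of 1.66 in scramble cells, and IL6 was at their 58.4th percentile there and at the 78.8th in knockdown cells. The IL6 value in scramble cells was thus near the middle of mRNAs of its length. Against mRNAs of their own lengths, CXCL1 (1097 nt) was at the 5.74th percentile in scramble cells, CXCL12 (1857 nt) at the 6.20th, CXCL8 (1705 nt) at the 10.6th and CCL2 (741 nt) at the 18.05th. By transcript length the chemokines were all in the lower part of their class, CCL2 included, although its own value was above 0. LIF (3969 nt) was at the 46.1st percentile. With all annotated exons as the length, the percentiles were 70.2 for IL6, 5.79 for CXCL1, 8.55 for CXCL8, 19.6 for CXCL12, 24.7 for LIF and 40.1 for CCL2. The lengths are of annotated models and not of the isoforms in these cells, and the part of length in the fraction differences was not tested.

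ATTTA copies did not order the genes by fraction. IL6, with 6 copies, was higher in polysomal RNA, and CXCL8, LIF and CXCL1, with 9, 7 and 5, were lower in scramble cells. CXCL12, with 3 copies, was also lower there (log2 -1.75), and CCL2, with 1, stood at log2 1.08 and was not called. Over all tested coding genes, those with at least 5 copies had a median log2 change of -0.65 in scramble cells and those with fewer copies 0.05. The median 3′ untranslated region was 3029 nt in the former and 644 nt in the latter.

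With EIF4G2 knocked down, no difference in the 6 tested genes passed the test in total RNA: by edgeR 0 were called, 0 had an unadjusted p below 0.05 and DESeq2 called 0. Over all tested genes edgeR called 0%, with 598 (3.68%) at an unadjusted p below 0.05. DESeq2 called 26 genes, 0.239% of the 10879 to which it gave an adjusted p, and CCL2 was not among those 10879. EIF4G2 itself, at 39.3% of its scramble level, narrowly missed the threshold in total RNA (edgeR adjusted p = 0.0504) and passed in polysomal RNA (0.0276). In DESeq2 EIF4G2 passed in total RNA (DESeq2 adjusted p = 4.05e-10) and in polysomal RNA (2.97e-14). Log2 changes were 0.0084 for IL6, 0.03 for CXCL8, 0.12 for CXCL12, 0.18 for LIF, 0.26 for CCL2 and 0.27 for CXCL1, with a median of 0.15 against 0.02 for all tested genes. CXCL12, the best measured, had a mean of 356.6 ± 0.547 CPM in scramble and 388.0 ± 12.9 in knockdown cells (SD, n = 2). Its 95% interval was -0.25 to 0.49 on the log2 scale, computed with a spread shared by all groups of both fractions. Given that shared spread, the interval bounds the change that these libraries could hide. The interval for CCL2, the least abundant of the tested genes, was -0.78 to 1.31. Both knockdown libraries lay above both scramble libraries for LIF and CXCL12, 2 of 6, and such a gap occurred in 47.9% of tested genes, with knockdown higher in 24.8%. With 1 library left out, the log2 change ran from -0.32 to 0.27 for IL6 and from -0.18 to 0.20 for CXCL8.

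In polysomal RNA the values of CXCL8 and CXCL12 were higher after knockdown, but neither passed adjustment. By edgeR 0 of 6 were called, where 0.0123% of all tested genes were (2 genes, 1 in each direction or 0.00616%). At an unadjusted p below 0.05 there were 2 of 6, against 13.3% (2152) of all. DESeq2 called 0 of 6 and 1.63% of the 14025 genes to which it gave an adjusted p. The count over all genes rested on knockdown polysome replicate 2: without it edgeR called 56 genes higher and 127 lower, and still 0 of the 6. CXCL8 had a mean of 3.97 ± 0.097 CPM in scramble and 7.48 ± 2.78 in knockdown (SD, n = 2). Its difference was log2 0.92 (SE 0.32, 95% interval 0.22 to 1.63, edgeR unadjusted p = 0.0149, adjusted p = 0.274). Its size rested on knockdown polysome replicate 1: the log2 difference was 0.44 without that library and 1.19 without replicate 2. CXCL12 had a mean of 105.7 ± 19.6 CPM in scramble and 142.0 ± 19.1 in knockdown (SD, n = 2), a log2 difference of 0.43 (SE 0.17, 95% interval 0.05 to 0.80, edgeR unadjusted p = 0.0288, adjusted p = 0.321). It stood at 0.22 without knockdown polysome replicate 2 and at 0.23 without scramble polysome replicate 1, the library with the lowest mitochondrial share of its fraction.

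The other 4 genes were closer to 0 or more variable in polysomal RNA. Log2 differences were 0.24 for IL6, 0.13 for LIF, 0.48 for CXCL1 and -0.04 for CCL2, and the median of all 6 was 0.33 against -0.01 for all tested genes. For LIF and CXCL1 the spread within the knockdown group (11.3 ± 4.32 and 4.27 ± 2.12 CPM, SD, n = 2) exceeded the difference from scramble (10.3 ± 0.933 and 3.04 ± 0.237 CPM). Both knockdown libraries lay above both scramble libraries for IL6, CXCL8 and CXCL12, 3 of 6, and 34% of tested genes had such a gap, 15.5% with knockdown higher.

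The ratio of polysomal to total RNA, tested as the interaction of hairpin and fraction, asked whether the knockdown changed ribosome loading beyond the mRNA level. For the 6 genes edgeR called 0, with 0 at an unadjusted p below 0.05, and DESeq2 called 0. Of all tested genes edgeR called 0%, with 1018 (6.27%) at an unadjusted p below 0.05, and DESeq2 called 0.0246%. CXCL8 had the highest value, log2 0.90 (SE 0.43, 95% interval -0.06 to 1.85, edgeR unadjusted p = 0.0636, adjusted p = 0.776). The loss of the CXCL8 call in knockdown cells, described above, is therefore not shown to be a difference between the hairpins. CXCL12 stood at 0.30, IL6 at 0.23, CXCL1 at 0.20, LIF at -0.05 and CCL2 at -0.31. The IL6 interval, -0.67 to 1.14, shows how wide a change in loading these libraries could not resolve.

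**Figure D4:**
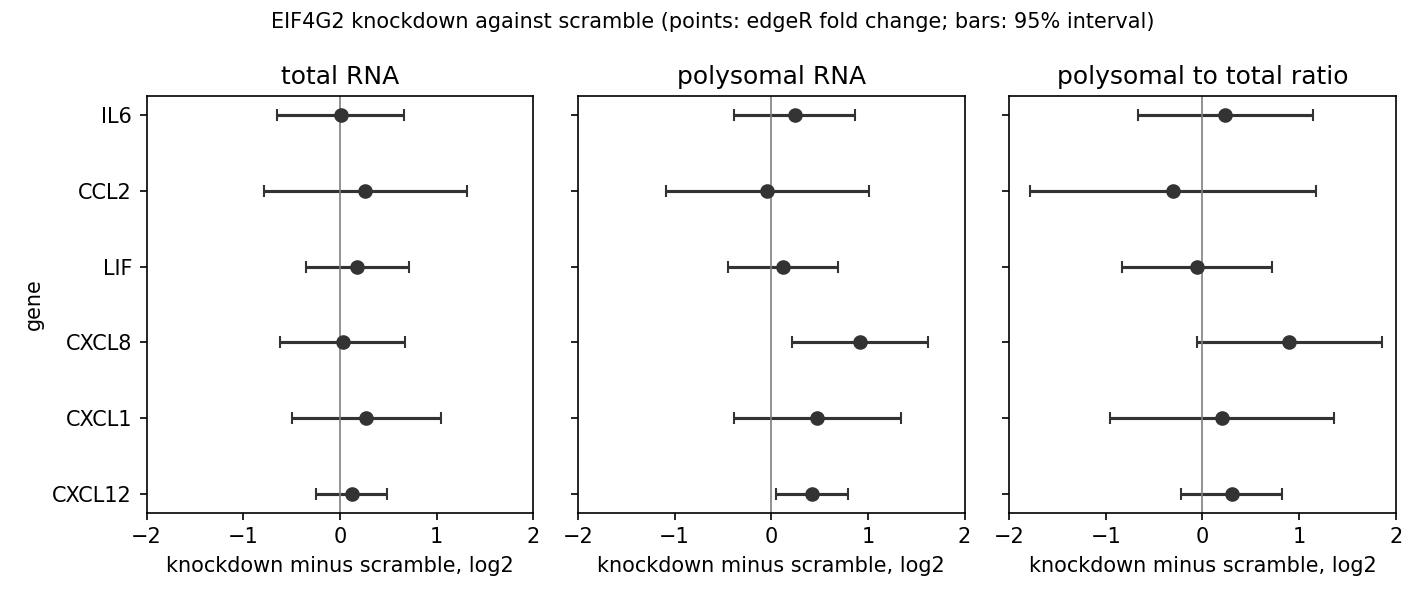
Log2 fold change of knockdown against scramble for the 6 tested genes with 95% intervals, shown for each fraction and for the polysomal to total ratio. In the polysomal comparison the intervals of CXCL8 (0.22 to 1.63) and CXCL12 (0.05 to 0.80) lie above 0, and all other intervals cover 0.

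The partners of these mediators were followed with 8 gene lists of 113 genes, 86 of which were tested. By edgeR 0 of the 86 were called in each knockdown comparison, and DESeq2 called 1, IRAK1, a kinase that relays interleukin-1 receptor signals, in polysomal RNA (log2 0.55, DESeq2 adjusted p = 0.0340, edgeR adjusted p = 0.198). In polysomal against total RNA 24 were higher and 43 lower in scramble cells, with a median log2 change of -0.70, where 29.7% of all tested genes were higher and 33.7% lower with a median of -0.17. In knockdown cells 19 were higher and 44 lower, with a median of -0.68, where 28.9% of all tested genes were higher and 34.1% lower with a median of -0.16. The number called higher was thus near or below that share of 86 genes, and the number called lower was above it.

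The family of IL6 and LIF divided by role. In scramble cells the ligands CLCF1, CTF1 and IL11 and the receptor IL11RA were higher in polysomal RNA. The receptors IL6ST, IL6R, LIFR and OSMR, the kinases JAK1, JAK2 and TYK2, and STAT3, SOCS3, PIAS3 and PTPN11 were lower. IL11, a fibroblast ligand of this family that acts downstream of TGF-beta, stood at 5.41 and 3.73 CPM in the scramble total pair, 3.83 and 3.95 in knockdown total, 47.7 and 54.1 in scramble polysome and 45.0 and 45.1 in knockdown polysome. It was 11.1-fold higher in scramble polysomal than total RNA (log2 3.47, edgeR adjusted p = 7.24e-07), so IL6 was not the only ligand of its family on that side. IL6ST, the signalling chain shared by IL6 and LIF, had a mean of 144.2 ± 10.5 CPM in scramble total and 60.8 ± 1.09 in scramble polysomal RNA (SD, n = 2). In total RNA CTF1 (log2 0.97) and OSMR (log2 -0.48) had the lowest knockdown p-values of this list, each with an edgeR adjusted p of 1.

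Of 8 receptors of the chemokines and of IL33, 3 were tested. CXCR1 and CXCR2, the receptors of CXCL8 and CXCL1, and CCR2, that of CCL2, had 0 counts in all 8 libraries. In total RNA the CXCL12 receptor CXCR4 was at 2.37 and 2.54 CPM with the scrambled hairpin and 4.21 and 3.95 with knockdown, with an unadjusted edgeR p of 0.0102 and an adjusted p of 1. In polysomal RNA CXCR4 was at 18.6 and 19.3 CPM in scramble and 27.6 and 20.5 in knockdown cells. CXCR4 and ACKR3, the scavenger receptor of CXCL12, were called higher in polysomal than total RNA in both hairpin groups, the opposite side from their ligand. Of 17 other chemokines 6 were tested, and CXCL6, a neutrophil chemokine, was called lower in polysomal RNA in both hairpin groups. CCL26, an eosinophil chemokine, was called higher in scramble cells.

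Of the 20 NF-kappaB pathway genes, all tested, 5 were higher and 11 lower in scramble polysomal RNA, at a median log2 change of -0.77 and beside 29.7% and 33.7% of all tested genes, with RELA, RELB, NFKBIB, NFKBIE and TNIP1 higher and NFKB1, NFKB2, REL, BCL3, NFKBIA, NFKBIZ, TNFAIP3, MYD88, IKBKB, MAP3K7 and TAB2 lower. NFKBIA, the inducible inhibitor of NF-kappaB, was at 10.6 and 6.83 CPM in scramble and 4.72 and 3.99 in knockdown polysomal RNA (log2 -0.998, edgeR unadjusted p = 0.00375, adjusted p = 0.195). Of 9 other NF-kappaB targets 7 were tested, of which TNFAIP6 was higher and ICAM1, VCAM1, PTX3, SOD2 and TNFAIP2 were lower in polysomal RNA in both hairpin groups. Of the 10 AP-1 and C/EBP factors ATF3, CEBPB, FOSL1, JUNB and JUND were higher and JUN and FOSL2 lower in scramble cells. In total RNA FOSL1 (log2 0.56) and CEBPB (log2 0.52) had knockdown values above 0 with an edgeR adjusted p of 1. Among 14 proteins that bind AU-rich mRNAs or degrade cytokine mRNAs, 2 were higher and 9 lower in scramble polysomal RNA (median log2 change -0.91, beside the same shares of all genes), the decay factors ZFP36, ZFP36L1 and ZFP36L2 among the latter. Of the interleukin-1, TNF and other cytokine list 10 of 17 genes were tested, with CSF2, IL15 and IL32 higher and CSF1, IL1B, IL1R1 and TNFRSF1B lower in scramble cells. IL1B, the inflammatory cytokine matured by the inflammasome, had a ratio value of log2 2.93 (SE 1.20, edgeR adjusted p = 0.776) on 48 and 55 counts in scramble total, 40 and 28 in knockdown total, 6 and 0 in scramble polysome and 13 and 8 in knockdown polysome. That value rests on the few scramble polysome counts. The remaining list genes with the smallest knockdown p also did not pass in edgeR: CXCL16 (log2 -0.78), CXCL3 (-0.85), TNFAIP6 (1.00) and ARID5A (0.59) in total RNA, IL1RAP (0.55) and TNFRSF1B (-1.96) in polysomal RNA, and TNFAIP2 (1.04) and ZFP36L2 (1.11) in the ratio.

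The genes whose profile over the 8 libraries was most like each member's were found by the root-mean-square difference of log2 CPM, each gene centred on its own mean, among tested coding genes with a mean log2 CPM of at least 3. For CXCL12 these were C11orf95 (0.087), PXN (0.11) and SRC (0.11), and for IL6 MGST1, ZFPM1 and YEATS4 (each 0.13). For LIF they were IFT81 (0.12), PWWP2A (0.13) and SRGAP2C (0.14), and for CCL2 ATXN7L2 (0.11), ABHD11 (0.13) and EEF2KMT (0.14). CXCL8 was closest to ZNF213 (0.15), USB1 (0.18) and MIB2 (0.19), and CXCL1 to TATDN2 (0.20), FJX1 (0.22) and ING5 (0.22). Of the genes described here, only LIF and CXCL12 met that minimum and could be named for another. All were computed over the same 8 libraries, and they are descriptions.

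Some counts could hold reads of neighbouring or related genes, since neither the strand setting nor the handling of multiply matching reads was stated. The antisense gene IL6-AS1 had 8 to 23 counts per library beside 75 to 206 for IL6, LIF-AS2 had 3 to 34 and LIF-AS1 0 to 4. CXCL2 and CXCL3, close relatives of CXCL1, had 2 to 45 and 6 to 24 counts, and the pseudogene CXCL1P1 had 0 in all 8 libraries. Their part in the values above was not tested.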

How the data were processed

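Total and polysomal RNA of 4 groups with 2 libraries each was analysed. The authors deposited whole-number counts per gene symbol, without normalization. Tools listed in the submitters' processing notes, without roles, are HISAT2 2.1.0, featureCounts, Subread 2.0.1, Trimmomatic 0.36, bcl2fastq 2.19.0, R 4.1.2 and DESeq2, with build GRCh38. Annotation, strand setting, handling of multiply matching reads and polysome isolation are not given in the sources used here. Per the series' design text, polyadenylated RNA was enriched and read as pairs. That text speaks of triplicates, of which 2 libraries a group were analysed.

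Genes passing filterByExpr (16228) were scaled by TMM and fitted over all 8 libraries with edgeR 4.0.16 in R 4.3.3 (robust quasi-likelihood test, group means, 4 residual degrees of freedom). The threshold was a Benjamini-Hochberg adjusted p of 0.05 across every tested gene. DESeq2 1.42.0, its size factors, library totals without TMM, no low-count filter, 1 fraction alone, a replicate block and leaving out each library were the alternatives. The scripts were tested on simulated data. The 7 genes, the 8 gene lists and the marker lists were chosen with earlier results of these data known. Named genes were the 7 members, EIF4G2, list genes called in a comparison, the 2 of each list with the smallest knockdown p and the 3 genes most like each member. Lengths and AU-rich stretches came from GENCODE 29, in which 14709 of the 16228 tested symbols (90.6%) were matched, and promoters from RefSeq (GRCh38.p14).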

Additional observations from a re-analysis of the deposited data

How the results depend on the processing

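Over 30 log2 fold changes of the 6 tested genes, 414 alternatives gave 366 with the same direction and side of the threshold, 8 that lost and 10 that gained a call, and 30 with the other sign. The last were all of values that passed no test, and they were as follows. For IL6 in total RNA the knockdown value was -0.0074 in DESeq2, -0.0073 with its size factors, -0.038 with library totals, -0.012 with no low-count filter and -0.0058 with the 4 total libraries alone. With library totals CXCL8 in total RNA was at -0.018 and CCL2 in the knockdown fraction comparison at -0.28. Leaving out 1 library gave, in total RNA, -0.32 to 0.27 for IL6, -0.18 to 0.20 for CXCL8 and -0.029 to 0.52 for CXCL1. In polysomal RNA it gave -0.38 to 0.44 for LIF, -0.19 to 0.89 for CXCL1 and -0.27 to 0.085 for CCL2. In the ratio it gave -0.032 to 0.56 for IL6, -0.54 to 0.28 for LIF and -0.45 to 0.64 for CXCL1, and in the knockdown fraction comparison -0.65 to 0.092 for CXCL8. The count of genes called lower in polysomal RNA was 2 to 4 in scramble cells and 1 to 3 in knockdown cells without 1 library, and 4 in knockdown cells with library totals. The count called higher in scramble cells was 1 to 2, since CCL2 passed without either knockdown polysome library.

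The labels do not state whether libraries of the same replicate number in different groups came from a shared culture. Correlations of their deviations from the group means ran from -0.092 to 0.026. With 2 libraries a group these correlations cannot decide it. With the replicate number as a block, the counts of called members did not change, CXCL8 in polysomal RNA stood at log2 0.88, and 3 genes of all tested were called in polysomal RNA. Over all genes DESeq2 called 19 higher and 7 lower in total RNA and 94 and 134 in polysomal RNA, and 4 in the ratio, where edgeR called 0, 2 and 0. Without the low-count filter edgeR called 26 higher and 12 lower, 128 and 374, and 22 and 42. The 4 total libraries alone gave 9 and 1. Leaving out 1 library at a time gave 56 and 127 in polysomal RNA without knockdown polysome replicate 2, 2 and 3 without either scramble total library, and at most 1 otherwise. The cause of these differences was not tested. CCL2, at 25 to 41 counts per library, and IL33 are limited by depth.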
